A study of Mus musculus with 14 samples.

Results

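Mouse embryonic stem cells (ESCs) were held in medium with LIF and 2i, a pair of kinase inhibitors that block MEK and GSK3, and were then left for 2 days in hanging drops of serum medium without LIF and 2i, where they form aggregates called embryoid bodies (EBs). The comparison described here is that exit, d2 EBs against the undifferentiated cells of d0, in the line with an shRNA against LacZ (shLacZ, the control) and in the line with an shRNA against the exoribonuclease DIS3L2 (shDIS3L2). The members were chosen as the 2 d0 and the 2 d2 libraries of polyA RNA, 4 of the 14 libraries of the series, which follows both lines to d12 with 1 library per line and day. Each line carries 1 shRNA, both lines went through the same change of medium, and the lines are the only repeats of each day, so the day was tested with the line as a block, while a difference between the lines in their response could not be tested. Per the paper, the ESCs used for differentiation carry an Osr1-GFP reporter. Nothing in the labels names separate cultures, so the p-values measure only the spread between these libraries. In bulk RNA, fewer cells of a type and less RNA per cell cannot be told apart.

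ESCs in LIF and 2i are in the naive state, which resembles the epiblast of the blastocyst before implantation. LIF acts through STAT3, the MEK inhibitor blocks the FGF and ERK pathway and the GSK3 inhibitor stabilizes beta-catenin, and all 3 act on a network of naive transcription factors. When these are withdrawn, ESCs are known to lose naive factors, to pass through a formative state that resembles the epiblast after implantation, and to raise genome-wide DNA methylation before lineage choice.

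Most of the transcriptome differed between d0 and d2, and the lines moved alike. Of 18520 genes tested, 6899 rose (37.3% of tested genes) and 6393 fell (34.5%) at an edgeR adjusted p under 0.05. Of these 13292 genes, 13291 changed in the same direction in both lines. The test of the day over both lines favours such genes, so this count was largely fixed in advance. A change of at least 2-fold in each line was met by 5191 rising genes (28.0%) and 4647 falling genes (25.1%), and one of at least 4-fold in each line by 3010 and 2139. Over the 14358 genes with at least 10 reads in every library, the median size of the change was 1.04 on the log2 scale in shLacZ and 1.16 in shDIS3L2, and the median difference between the lines was 0.34. Pearson's r between the changes of the lines was 0.94 across these genes, which are not independent replicates. Only 2 of these genes changed at least 2-fold in opposite directions. Since over 7 in every 10 genes passed the test, the count of any group of genes is read below against the background of 37.3% rising and 34.5% falling.

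**Figure D1:**
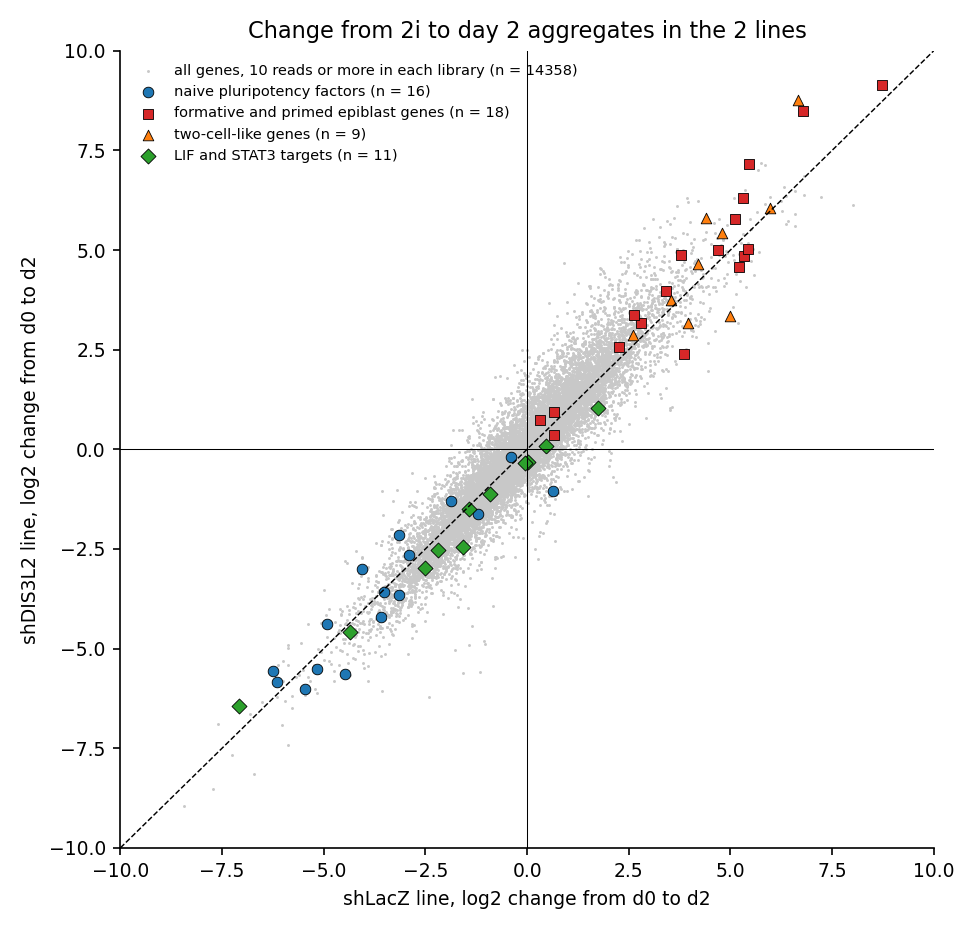
Log2 change from d0 to d2 in shLacZ (x axis) against shDIS3L2 (y axis), with a grey point for each of the 14358 genes that had at least 10 reads in every library and coloured symbols for the tested members of 4 gene lists. The points lie along the diagonal of equal change, with the 14 called naive factors at the lower left and the 16 called formative genes at the upper right.

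The reads counted on genes numbered 21400973 to 39888099 in the 4 libraries compared (7178712 to 39888099 in the series), and 3 reads, the floor, stood for 0.0752 to 0.140 CPM, a count scaled by the library total. Levels below are CPM divided by the TMM factors (normalized CPM), always shLacZ first and shDIS3L2 second. The value after ± is an approximate standard error over 4 libraries. It is the size of the fitted log2 fold change divided by the square root of its edgeR F statistic. Dis3l2 itself was at 32.1 and 5.36 at d0 and 12.6 and 3.65 at d2, lower in the shDIS3L2 library of each day. It fell from d0 to d2 (log2 fold change -0.98 ± 0.29, edgeR adjusted p = 0.00611), a call that rested on single libraries, since the change was 0.64 without shLacZ d0 and -0.55 (adjusted p = 0.36) without shDIS3L2 d2. It was also lost with library totals (-0.38, adjusted p = 0.355), all 14 libraries (adjusted p = 0.0904) and no block (adjusted p = 0.184). The libraries of d0 also stood apart in composition. Ribosomal protein genes took 8.63% and 10.4% of the reads at d0 and 2.68% and 3.11% at d2, and processed pseudogenes took 21.5% and 22.4% at d0 and 12.3% and 13.7% at d2. Of the 82 ribosomal protein genes tested 80 fell and none rose, with a median log2 fold change of -2.17.

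The direction of change also followed gene length and GC content. Among protein-coding genes, the shortest decile (exon length 123 to 1582 bases) had a median log2 fold change of -1.47 in shLacZ and -1.52 in shDIS3L2, with 15.6% of genes rising and 65.1% falling. The longest decile (9342 bases or more) had 1.20 and 1.21, with 65.9% rising and 11.7% falling. By GC content of the transcript, the decile with the least (31.0 to 41.3%) had 1.05 and 1.28 and the decile with the most (58.0 to 72.8%) had -0.68 and -0.77. From d2 to d4 the medians of these deciles lay between -0.23 and 0.13. Leaving out the ribosomal protein genes gave -1.49 for the shortest decile. The part of these trends in the results for single genes was not tested, and a fit with both trends removed by an offset (detrended) is given beside list medians and beside each named call whose log2 fold change it moved by over 1.5 times, whose direction it turned or whose call it ended. It moved the median of all genes tested from 0.08 to 0.37, that of ribosomal protein genes to -1.05 and the change of Dis3l2 to -2.30. That fit kept 83.7% of the rising calls and 56.5% of the falling calls.

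**Figure D2:**
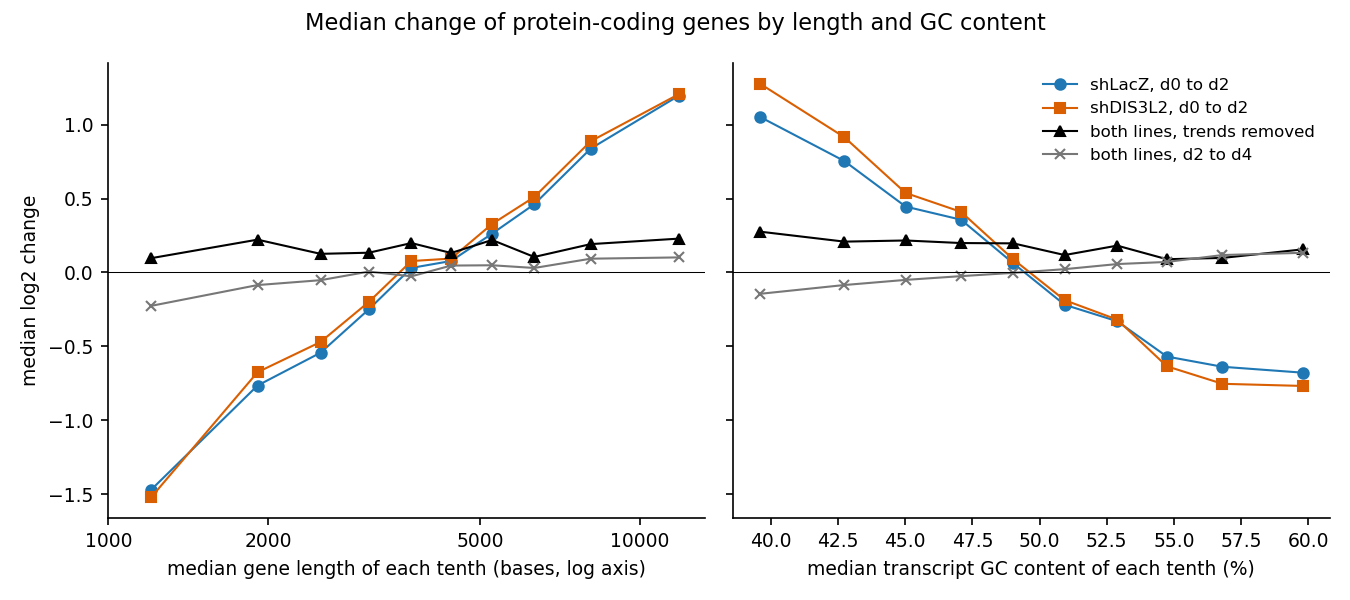
Median log2 fold change from d0 to d2 (y axis) in deciles of protein-coding genes ordered by exon length and by transcript GC content (x axes), for each line. The medians went from -1.47 and -1.52 in the shortest decile to 1.20 and 1.21 in the longest, and from 1.05 and 1.28 to -0.68 and -0.77 with rising GC content.

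Naive pluripotency factors fell together. Of the 16 factors listed, 14 fell and none rose, with a median log2 fold change of -3.56 (0.08 over all genes tested, -2.89 for the list with the length and GC trends removed), and their summed level went from 4592 and 5010.0 at d0 to 511 and 586 at d2. Tfcp2l1, a transcription factor that acts downstream of LIF, stood at 562 and 729.9 at d0 and 12.6 and 11.2 at d2, and its log2 fold change was -5.74 ± 0.26 (edgeR adjusted p = 4.82e-11). Esrrb, an orphan nuclear receptor of the naive network, was at 427 and 351 at d0 and 14.1 and 16.7 at d2 (-4.66 ± 0.24, edgeR adjusted p = 1.41e-10). Nanog, the homeodomain factor of the naive state, was at 392 and 446 at d0 and 44.4 and 35.5 at d2 (-3.40 ± 0.22, edgeR adjusted p = 2.09e-09). In each of the 3 genes both d2 libraries lay below both d0 libraries, and the lines differed from each other by far less than the days.

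The other naive factors differed in how far they fell. Klf4 was at 85.4 and 42.4 at d0 and 5.06 and 5.3 at d2, Klf2 at 333 and 281 at d0 and 9.19 and 6.1 at d2, and both encode Krüppel-like factors. Prdm14, a PR-domain protein that restrains FGF signalling and DNA methylation in ESCs, was at 31.2 and 19.11 at d0 and 0.394 and 0.384 at d2 (-5.99 ± 0.37, edgeR adjusted p = 1.1e-09). Tcl1, a cofactor of AKT, was at 217 and 231 at d0 and 3.03 and 4.03 at d2 (-6.00 ± 0.24). The smallest falls were those of Fgf4, the FGF that ESCs themselves secrete, at 256 and 343 at d0 and 111 and 111 at d2 (-1.41 ± 0.20, adjusted p = 0.0831 with all 14 libraries), and of the nuclear receptor gene Nr0b1, at 42.3 and 36.3 at d0 and 11.5 and 14.7 at d2 (-1.60 ± 0.24), which was -0.29 (adjusted p = 0.286) with the trends removed and had no call with all 14 libraries (adjusted p = 0.0747). Klf5 was at 7.92 and 21.2 at d0 and 12.4 and 10.2 at d2 and Tet2 at 22.7 and 17.4 at d0 and 17.4 and 15.3 at d2, and neither passed the test (edgeR adjusted p = 0.617 and edgeR adjusted p = 0.306). Klf5 had a falling call without shLacZ d0 (-0.87, adjusted p = 8.09e-05), and Tet2 with the trends removed (-1.53, adjusted p = 8.89e-05).

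LIF and STAT3 targets fell as well, in 7 of the 11 tested, with 1 rising, a list median of -1.47 (-1.22 without the length and GC trends) and a summed level that went from 415 and 474 at d0 to 136 and 124 at d2. Bcl3, an IkB family protein, was at 47.5 and 58.2 at d0 and 0.334 and 0.652 at d2 (-6.78 ± 0.33, edgeR adjusted p = 7.67e-11). Socs3, the feedback inhibitor of LIF receptor signalling, was at 29.6 and 38.4 at d0 and 1.43 and 1.57 at d2 (-4.48 ± 0.30, edgeR adjusted p = 2.08e-09). Both went to a small share of their d0 level in each line. Pim1, a kinase gene, was at 85.1 and 91.9 at d0 and 14.9 and 11.6 at d2 (detrended -1.78) and Stat3 itself at 65.9 and 73.5 at d0 and 24.3 and 26.1 at d2 (-1.47 ± 0.20). Il6st, the shared receptor chain gp130, was at 44.6 and 59.5 at d0 and 23.7 and 27.5 at d2 (-1.01 ± 0.21, detrended -1.84). The fall of Il6st was -0.41 (adjusted p = 0.151) with library totals. The receptor gene Lifr, at 37 and 31.9 at d0 and 35.9 and 25.3 at d2, and Gbx2, at 5.68 and 7.16 at d0 and 7.82 and 7.6 at d2, did not pass the test. With the trends removed Lifr was at -1.20 (adjusted p = 0.000292) and Gbx2 at 1.48 (adjusted p = 0.00111).

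The promoters of the fallen genes Socs3 and Esrrb hold a match to the STAT motif TTCNNNGAA, searched on both strands from 250 bases before to 50 bases after each start in the RefSeq promoter table (GRCm38.p6). The motif is found in 8.30% of 32851 promoters. The windows are shown because Socs3 is a known target of LIF and STAT3 and Esrrb is listed here as a naive factor. The motif is in capitals, read on the strand of the gene. The windows are chr11:117969502-117969530 (minus strand) for Socs3 and chr12:86360929-86360957 (plus strand) for Esrrb, where the motif lies at 1 of the 2 starts listed.
Socs3: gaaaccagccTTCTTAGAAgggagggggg
Esrrb: aacggaaactTTCGTGGAAagcacttgag
Among the 10 naive factors that fell and have a promoter in the table, Esrrb alone held a match, and among the 7 LIF and STAT3 targets that fell, Socs3 alone. A match describes the letters only.

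Factors shared by naive and later pluripotent cells were split, with 6 of 12 rising, 2 falling and a median of 0.41 (1.02 with library totals, 1.24 with the trends removed). Lin28b, an RNA-binding protein that blocks let-7 maturation, was at 6.43 and 4.22 at d0 and 59.8 and 48.8 at d2 (3.36 ± 0.25, detrended 2.09), and its relative Lin28a at 79.8 and 81.1 at d0 and 307 and 294 at d2 (1.90 ± 0.20). The zinc-finger gene Sall4 fell, from 284 and 631 at d0 to 159 and 142 at d2 (-1.49 ± 0.26). Pou5f1, which encodes OCT4, was at 1336 and 981 at d0 and 764 and 779 at d2 (-0.57 ± 0.21, edgeR adjusted p = 0.0251). That small fall was not stable, since it became 0.04 with library totals, 0.58 with the length and GC trends removed, -0.32 (adjusted p = 0.152) without shLacZ d0, -0.53 (0.369) without shLacZ d2, -0.47 (0.618) with all 14 libraries and -0.58 (0.317) without shDIS3L2 d2. Sox2 was at 153 and 119 at d0 and 93.7 and 105 at d2 (edgeR adjusted p = 0.0525), Tdgf1, a Nodal coreceptor, at 446 and 415 at d0 and 344 and 335 at d2 and Utf1 at 123 and 129 at d0 and 132 and 138 at d2, all 3 without a call. Sox2 had a falling call with no filter on low counts (-0.47, adjusted p = 0.0429) and with the 6 libraries of d0, d2 and d4 (-0.45, adjusted p = 0.0394). Its change was -0.65 without shDIS3L2 d0. Utf1 had a rising call with library totals (0.71, adjusted p = 0.00708) and with the trends removed (2.01, adjusted p = 1.57e-06). The summed level of the list went from 2646 and 2649.7 at d0 to 2314 and 2261 at d2.

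Formative and primed epiblast genes rose in 16 of 18 cases and fell in none, with a median of 4.56 (4.93 without the length and GC trends, 5.16 with library totals), and their summed level went from 295 and 289 at d0 to 3917 and 3612 at d2. Fgf5, the growth factor gene that marks the epiblast after implantation (chr5:98254184-98277030, GRCm38), was at 0.196 and 0.103 at d0 and 88.7 and 72.5 at d2 (8.97 ± 0.35, edgeR adjusted p = 1.31e-11). Pou3f1, which encodes the POU factor OCT6, was at 0.951 and 0.309 at d0 and 106 and 120.3 at d2 (7.37 ± 0.34, edgeR adjusted p = 5.72e-11). Otx2, a homeodomain factor that works with OCT4 in the formative state, was already expressed at d0, with 23.9 and 17.2 at d0 and 115 and 103 at d2 (2.42 ± 0.20, edgeR adjusted p = 2.83e-08). The 3 genes were thus raised from very different starting points, and in all of them the lowest d2 library was above the highest d0 library.

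Further members moved in the same way. Sall2, a zinc-finger gene, was at 5.09 and 1.34 at d0 and 225 and 194 at d2 (6.14 ± 0.33), and Lef1, a partner of beta-catenin, at 1.48 and 0.773 at d0 and 51.7 and 44 at d2 (5.40 ± 0.31). Pim2, a serine/threonine kinase gene, was at 10.1 and 13.3 at d0 and 435 and 434 at d2 (5.23 ± 0.24), and Grhl2, a grainyhead factor of epithelial enhancers, at 2.24 and 3.09 at d0 and 82.8 and 73.7 at d2 (4.90 ± 0.26). The SOX genes Sox3 and Sox4 and the ZIC genes Zic2 and Zic5 rose by 2.99 to 4.84 on the log2 scale. The members without a call were Foxd3, at 11.1 and 15 at d0 and 17.6 and 19.3 at d2 (edgeR adjusted p = 0.0782), and Tcf15, at 7.94 and 5.2 at d0 and 9.95 and 8.71 at d2 (edgeR adjusted p = 0.136). Both had a rising call with library totals (adjusted p = 0.00479 and 0.015) and with the trends removed (adjusted p = 3.98e-05 and 8.3e-06).

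**Figure D3:**
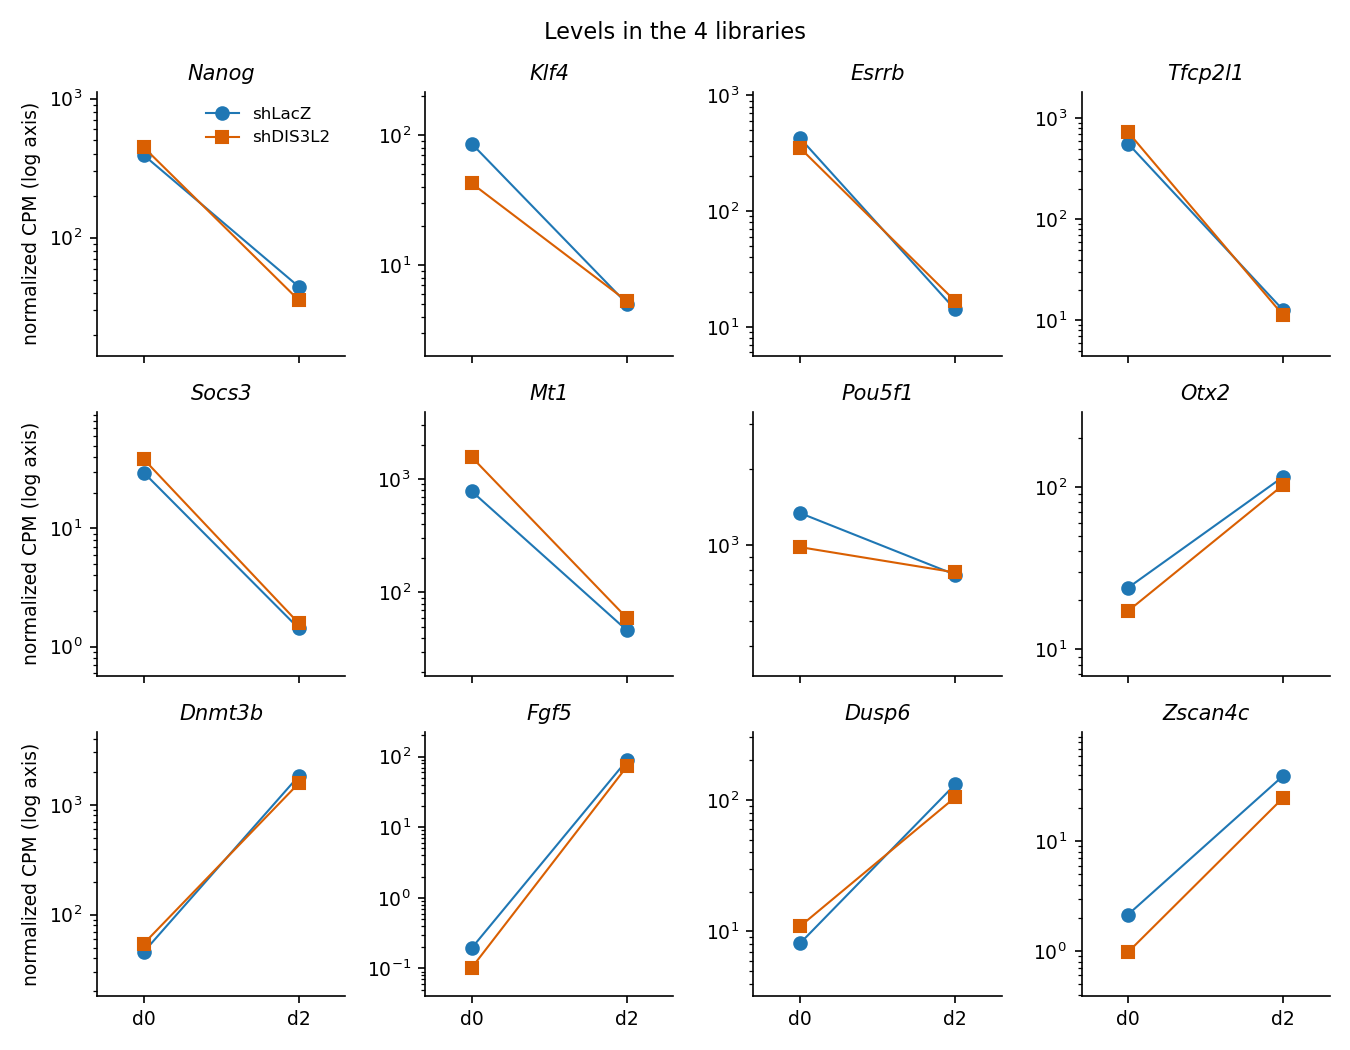
Normalized CPM (log axis) of selected genes in the 4 libraries, 1 panel per gene, with d0 and d2 on the x axis joined by a line for shLacZ and one for shDIS3L2. Tfcp2l1 goes down from 562 in shLacZ and Dusp6 up from 8.11, and in each panel the slopes of the lines point the same way.

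Of 10 genes of DNA methylation, 7 rose and 2 fell (median 1.08, detrended 1.23), beside 37.3% rising and 34.5% falling over all genes tested. The de novo methyltransferase Dnmt3b (chr2:153649450-153687730) was at 45.7 and 54.4 at d0 and 1837 and 1574 at d2 (5.09 ± 0.25, edgeR adjusted p = 1.04e-10), and Dnmt3a was at 11.7 and 5.61 at d0 and 463 and 449 at d2 (5.79 ± 0.28). Dnmt3l, their cofactor without catalytic activity, was at 153 and 159.9 at d0 and 245 and 307 at d2 (0.81 ± 0.20, detrended 1.51), already high at d0. Its rise was lost without shDIS3L2 d2 (0.67, adjusted p = 0.109) and with all 14 libraries (adjusted p = 0.339). Dnmt3c, the rodent methyltransferase known from the male germ line, went from 9 reads over both d0 libraries to 109.8 and 93 normalized CPM at d2 (9.32 ± 0.36). The maintenance enzyme Dnmt1 rose by far less, from 169.5 and 109 at d0 to 287 and 258 at d2 (1.001 ± 0.20). Uhrf1, which brings DNMT1 to hemimethylated DNA, fell instead, from 571 and 646 at d0 to 259 and 233 at d2 (-1.31 ± 0.21). Among the enzymes that oxidize methylcytosine, Tet1 was at 56.1 and 45.1 at d0 and 433 and 351 at d2 (2.96 ± 0.21, detrended 1.63) and Tet3 at 6.01 and 3.66 at d0 and 30.5 and 24.9 at d2 (2.54 ± 0.27).

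Germline genes known to be kept silent by promoter methylation in somatic cells did not move as 1 group. Of 16 tested, 8 rose, 3 fell and 5 had no call (median 0.27, 0.90 with the length and GC trends removed). Ddx4, an RNA helicase of germ cells, was at 2.15 and 1.75 at d0 and 24.4 and 21.7 at d2 (3.56 ± 0.30). Tdrd1, a tudor protein of the piRNA pathway, was at 0.112 and 0.103 at d0 and 8.37 and 5.37 at d2 (5.98 ± 0.55), and Mael, another piRNA factor, at 2.27 and 1.44 at d0 and 9.13 and 8.83 at d2 (2.29 ± 0.37). Sycp1, a protein of the synaptonemal complex, was at 0.168 and 0.258 at d0 and 4.97 and 4.8 at d2 (4.55 ± 0.53), and Taf7l, a germ cell paralog of a TFIID subunit, at 1.65 and 3.19 at d0 and 7.85 and 7.14 at d2 (1.71 ± 0.38). Dazl, the RNA-binding protein of germ cells, went the other way, with 89.5 and 105 at d0 and 13.3 and 16.4 at d2 (-2.72 ± 0.21, edgeR adjusted p = 9.1e-09).

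The E-box CACGTG lies in the promoter window of 10 of the 16 germline genes, and 7.15% of all 32851 promoters hold it. It was found in 7 of the 8 that rose, in none of the 3 that fell (Dazl, Dpep3 and Rpl10l) and in 3 of the 5 without a call. With the trends removed the change of Dpep3 was -1.14 and that of Rpl10l -0.43 (adjusted p = 0.0581). The letters are a palindrome, so both strands give the same matches. They are shown in capitals for the 5 risers named above, because E-boxes of this form lie in many promoters of germline genes. The windows, on the strand of the gene in GRCm38.p6, are chr13:112652322-112652351 (minus) for Ddx4, chr19:56826186-56826215 (plus) for Tdrd1, chr1:166238950-166238979 (minus) for Mael, chr3:102936177-102936206 (minus) for Sycp1 and chrX:134476522-134476551 (minus) for Taf7l.
Ddx4: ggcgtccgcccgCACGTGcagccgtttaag
Tdrd1: tggggctgcgcgCACGTGggagtaaactgc
Mael: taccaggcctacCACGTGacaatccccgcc
Sycp1: tagagaacccggCACGTGggaagggaaatc
Taf7l: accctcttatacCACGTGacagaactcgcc
The matches start between 223 and 11 bases before the listed start of transcription, and for Tdrd1 the one at 11 bases is counted from the first of its 3 listed starts.

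Targets of FGF and ERK, the pathway that the MEK inhibitor blocks, rose in 11 of 19 cases and fell in 5 (median 1.57, detrended 1.63). The feedback inhibitors given here rose, apart from Dusp5, which had no call (-0.18). With the trends removed Dusp5 had a rising call (0.86, edgeR adjusted p = 0.048). Dusp6, an ERK phosphatase, was at 8.11 and 10.9 at d0 and 131 and 105 at d2 (3.64 ± 0.24, edgeR adjusted p = 1.84e-09), and Dusp4, another, at 1.48 and 0.773 at d0 and 93.2 and 64.1 at d2 (6.12 ± 0.28). Spry4, an inhibitor of receptor tyrosine kinase signalling, was at 4.25 and 5.72 at d0 and 51.5 and 48.9 at d2 (3.35 ± 0.26). Spry1, Spry2, Spred1, Spred2 and Il17rd, which also dampen the pathway, rose by 1.44 to 2.34 on the log2 scale, but Spred1 was at 0.46 (adjusted p = 0.0638) with the trends removed. The immediate early genes Egr1 and Fos did not rise with the inhibitors, while Myc, given below, did. Egr1, a zinc-finger factor, was at 105 and 114 at d0 and 11.4 and 13.6 at d2 (-3.14 ± 0.21, edgeR adjusted p = 2.36e-09), and Fos, a subunit of AP-1, at 8.64 and 8.91 at d0 and 2.24 and 2.34 at d2 (-1.93 ± 0.35, detrended -1.09). Among ETS factors of the pathway, Etv1 rose from 4.84 and 12.1 at d0 to 20.2 and 25.6 at d2 (1.57 ± 0.29), which was 0.60 (adjusted p = 0.0967) with the trends removed, while Etv5 was at 286 and 315 at d0 and 302 and 217 at d2 with no call. Etv4 fell from 49.4 and 68.3 at d0 to 37.8 and 34.2 at d2 (-0.69 ± 0.21, edgeR adjusted p = 0.00802). That fall became 0.15 with the trends removed, -0.09 (adjusted p = 0.755) with library totals, -0.75 (0.144) with all 14 libraries, -0.74 (0.0786) without shLacZ d2 and -0.61 (0.143) without shDIS3L2 d2. Myc, the growth regulator, was at 5.06 and 5.1 at d0 and 36.1 and 30.7 at d2 (2.72 ± 0.26), and Ccnd1, which encodes cyclin D1, fell from 224 and 284 at d0 to 71.7 and 58.5 at d2 (-1.96 ± 0.21).

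Targets of Wnt and beta-catenin, the pathway that the GSK3 inhibitor stimulates, moved both ways, with 6 of 15 rising, 5 falling and a median of -0.14 that turned to 0.46 with library totals and 0.63 with the length and GC trends removed. Sp5, a target factor of beta-catenin, was at 14 and 30.8 at d0 and 0.364 and 0.461 at d2 (-5.66 ± 0.38), and Cdx1, a caudal homeodomain gene, at 23.4 and 22.9 at d0 and 0.152 and 0.0384 at d2 (-7.80 ± 0.46). Notum, a secreted enzyme that inactivates Wnt ligands, was at 46.7 and 30 at d0 and 4.67 and 4.99 at d2 (-2.96 ± 0.27, detrended -1.85). Axin2, the feedback inhibitor often used as the readout of the pathway, was at 18.2 and 21.8 at d0 and 15.5 and 12.1 at d2 and did not pass the test (-0.54 ± 0.26, edgeR adjusted p = 0.0723). It had a falling call with the 6 libraries of d0, d2 and d4 (-0.53, adjusted p = 0.0398), and its change was -0.63 without shLacZ d0. The ligand Wnt3 rose from 0.392 and 0.412 at d0 to 8.25 and 7.64 at d2 (4.30 ± 0.44). Wnt8a, another ligand, had 3 reads over both d0 libraries and was at 21.9 and 18.4 normalized CPM at d2, a ratio of 375 (95% counting interval 128 to 1819.7) by pooled reads.

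The Nodal pathway was split in the same way, with 4 of 11 rising and 5 falling. Its median of -0.53 became 0.07 with library totals and 0.11 with the length and GC trends removed. The ligand gene Nodal fell from 118 and 203 at d0 to 90.6 and 87 at d2 (-0.80 ± 0.22, edgeR adjusted p = 0.00349). That fall became 0.38 with the trends removed, -0.20 (adjusted p = 0.425) with library totals, -0.95 (0.216) with all 14 libraries, -0.84 (0.0531) without shLacZ d2 and -0.80 (0.0614) without shDIS3L2 d2. Foxh1, the cofactor of SMAD2 and SMAD3, was at 21.9 and 7.06 at d0 and 60.8 and 64.9 at d2 (2.29 ± 0.32, detrended 4.06). Of the Lefty antagonists, Lefty1 rose from 25.9 and 30.1 at d0 to 57.5 and 54.2 at d2 (edgeR adjusted p = 0.000412, detrended 2.42), a call lost with all 14 libraries (0.97, adjusted p = 0.218), and Lefty2 fell from 84.6 and 73.8 at d0 to 38 and 35.9 at d2 (-1.10 ± 0.19), a fall that was -0.38 (adjusted p = 0.0824) with the trends removed, -0.49 (0.0702) with library totals and -1.09 (0.236) with all 14 libraries. The copies are alike in sequence, and how reads were split between them is uncertain. Gdf3, a TGF-beta family ligand, was at 119 and 123 at d0 and 40.5 and 38.9 at d2 (-1.61 ± 0.19, detrended -0.998, adjusted p = 0.0578 with all 14 libraries), and Pcsk6, a convertase that processes Nodal, at 105 and 98.2 at d0 and 14 and 8.64 at d2 (-3.20 ± 0.23).

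Genes of the two-cell-like state, a rare and transient state of ESC cultures, rose in all 9 cases tested (median 4.40, detrended 5.01), and the summed level of the list went from 7.52 and 3.76 at d0 to 149 and 98.5 at d2. Zscan4c was at 2.15 and 0.979 at d0 and 39.8 and 25.1 at d2 (4.40 ± 0.30, edgeR adjusted p = 3.52e-09). Zscan4f was at 2.01 and 0.464 at d0 and 42.6 and 27.3 at d2 (4.91 ± 0.35) and Zscan4d at 0.42 and 0.206 at d0 and 12.1 and 9.94 at d2 (5.09 ± 0.44). These zinc-finger genes are near-identical copies in 1 cluster, so the values of a single copy are uncertain while their common rise was seen in both lines. Zfp352, on another chromosome, was at 0.14 and 0.155 at d0 and 2.37 and 1.61 at d2 (3.76 ± 0.63), and Usp17la, a ubiquitin protease gene, at 0.28 and 0.567 at d0 and 9.37 and 5.95 at d2 (4.25 ± 0.49).

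Markers of later lineages moved unevenly. The primitive streak and mesoderm list had 4 of 9 tested members rising and 1 falling (median 0.69, detrended 0.79), with a summed level that went from 28.9 and 36.1 at d0 to 29 and 17.5 at d2. Of its defining genes, Eomes was at 9.4 and 11.5 at d0 and 12 and 9.44 at d2 and Mixl1 at 0.895 and 0.567 at d0 and 0.607 and 0.537 at d2, neither with a call, and Mesp1 had at most 7 reads in any library. The streak gene T, which encodes brachyury and stands in the Wnt list, fell from 2.24 and 3.09 at d0 to 1.3 and 0.461 at d2 (-1.63 ± 0.52, edgeR adjusted p = 0.0103). Its fall was lost with the trends removed (-0.75, adjusted p = 0.237), library totals (-1.05, adjusted p = 0.104), DESeq2 (adjusted p = 0.0983), all 14 libraries (adjusted p = 0.178) and without shDIS3L2 d2 (adjusted p = 0.301). Goosecoid (Gsc), a homeodomain gene of the organizer, had one of the largest falls, with 14.8 and 19.5 at d0 and 0.091 and 0.115 at d2 (-7.31 ± 0.46, edgeR adjusted p = 1.37e-09). Lhx1, a LIM homeodomain gene, had 1 read at d0 and was at 3.37 and 2.19 at d2, a ratio of 157 (95% counting interval 27.8 to 6238). The rising calls of Fgf8 and Hand1, of the same list, were lost with DESeq2 (adjusted p = 0.239 and 0.114). They were also lost with all 14 libraries (adjusted p = 0.208 and 0.0549), and the limits of the rising call of Kdr are given below.

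The summed level of the neural-like list went from 111 and 81.2 at d0 to 132 and 123 at d2, with 3 of 7 rising and 1 falling (median 0.38, detrended 0.60). Neurod1, a proneural bHLH gene, was at 0.476 and 0.258 at d0 and 35.8 and 41.5 at d2 (6.61 ± 0.36), and Pax6 at 0.14 and 0.464 at d0 and 3.79 and 4.15 at d2 (3.88 ± 0.55). Sox1, the earliest neural marker of the list, was at 4.03 and 0.979 at d0 and 1.55 and 0.998 at d2 and had no call. Its log2 fold change was -0.78 in the fit and -1.67 without shDIS3L2 d0. The falling member was Tubb3, at 66.2 and 40.6 at d0 and 32 and 29.9 at d2 (-0.75 ± 0.22, edgeR adjusted p = 0.00563). That fall became 0.60 with the trends removed, -0.14 (adjusted p = 0.65) with library totals and -0.80 (0.362) with all 14 libraries. Olig2 and Hes5 were at 4 reads or fewer in every library.

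Genes of primitive and visceral endoderm rose in 9 of 13 cases and fell in 1 (median 2.43, detrended 3.17). Their summed level went from 10.3 and 10.4 at d0 to 128 and 104 at d2, and none of the 14 listed genes was at 0 at d2. Cubn, the endocytic receptor cubilin, was at 0.112 and 0.206 at d0 and 64.4 and 48.7 at d2 (8.58 ± 0.38). Dab2, an endocytic adaptor, was at 0.811 and 3.3 at d0 and 29.9 and 29.7 at d2 (4.12 ± 0.40), and Pdgfra at 0.364 and 0.515 at d0 and 9.37 and 8.41 at d2 (4.37 ± 0.44). Gata6, the factor that opens primitive endoderm fate, was at 0.699 and 0.206 at d0 and 5.43 and 4.3 at d2 (3.44 ± 0.49). Sox17, a defining factor of endoderm, rose from 0.448 and 0.155 at d0 to 1.39 and 0.844 at d2 (1.89 ± 0.61, edgeR adjusted p = 0.0104), a call lost with DESeq2 (2.07, adjusted p = 0.168) and without shLacZ d2 (1.44, adjusted p = 0.237). The falling member was Apoa1, at 0.755 and 0.876 at d0 and 0.334 and 0.154 at d2 (-1.70 ± 0.66, edgeR adjusted p = 0.0293). That fall became 0.08 with the trends removed and was lost with library totals (-1.12, adjusted p = 0.143) and DESeq2 (-1.76, adjusted p = 0.316). The defining genes Foxa2, Ttr and Afp were at or under 1.03 normalized CPM at d2.

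The trophoblast-like list fell in 4 of 8 cases and rose in none (median -1.18, -0.02 with the length and GC trends removed), from 94 and 106 at d0 to 18.5 and 18.4 at d2 in sum. Its falling members include Tfap2c, an AP-2 factor that naive ESCs also express, at 42.7 and 48.6 at d0 and 3.03 and 3.65 at d2 (-3.77 ± 0.26), and Tead4, at 30.9 and 28.7 at d0 and 2.94 and 2.03 at d2 (-3.59 ± 0.29). The defining genes Cdx2 and Elf5 stayed at or under 2.47 normalized CPM in every library. The fibroblast-like list rose in 5 of 8 cases (median 1.57, detrended 2.64), from 9.96 and 6.54 at d0 to 24.2 and 27.9 at d2 in sum. Fap was at 0 in all 4 libraries and Lum at 0 at d2, while Dcn, without a read at d0, was at 3.06 and 5.49 at d2, at least 76-fold higher by the floor of 3 reads over both libraries. Col1a2 was at 0.112 and 0.258 at d0 and 5.28 and 6.18 at d2 (5.03 ± 0.53). Col1a1, the other chain of collagen I, was at 2.8 and 2.11 at d0 and 1.49 and 1.3 at d2 and had no call (edgeR adjusted p = 0.104). The study's methods describe gelatin without feeders for ESCs in LIF and serum. For ESCs held in LIF and 2i before differentiation they refer to earlier work. Whether other cell types had a part in the rises was not tested.

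**Figure D4:**
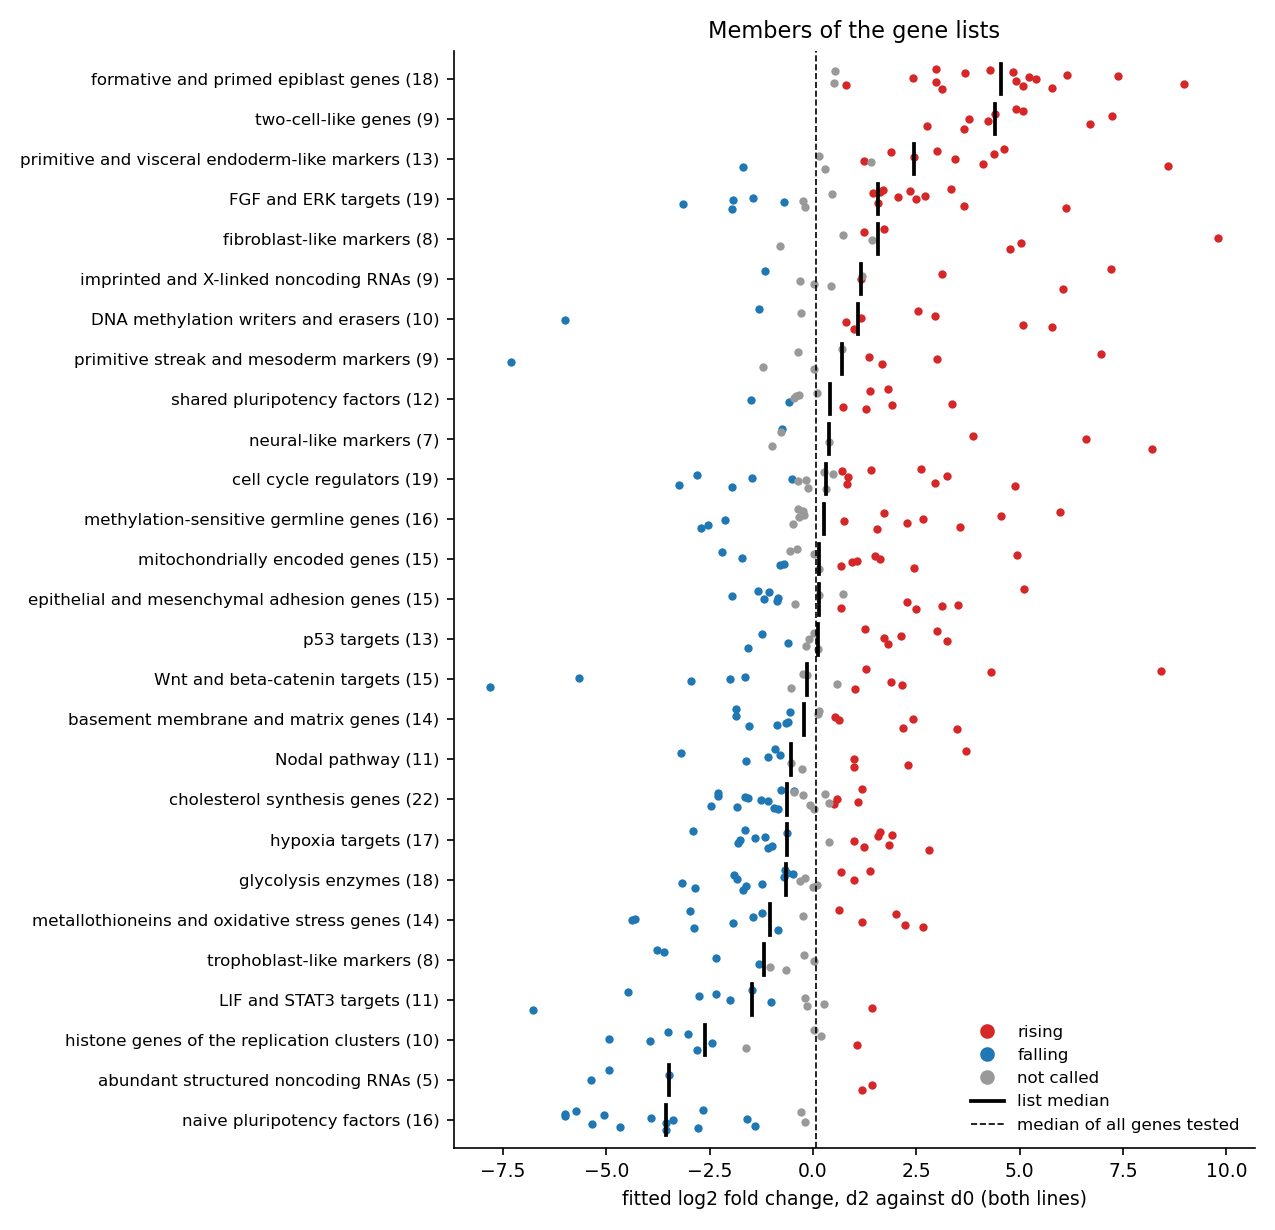
Fitted log2 fold change from d0 to d2 of the tested members of each gene list (x axis, 1 point per gene, coloured by its call, with the list median marked), with lists as rows. Medians ran from -3.56 for naive factors to 4.56 for formative genes and 4.40 for two-cell-like genes, beside 0.08 over all genes tested.

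Metallothioneins, small proteins that bind zinc and copper, fell strongly. Mt1 was at 777 and 1552 at d0 and 46.4 and 59.6 at d2 (-4.38 ± 0.25, edgeR adjusted p = 4.21e-10, detrended -2.78). Mt2 was at 1403 and 2615 at d0 and 85.7 and 109.7 at d2 (-4.30 ± 0.25, detrended -1.69), highest in the shDIS3L2 library of d0. The wider list of metallothionein and oxidative stress genes had 5 of 14 rising and 8 falling (median -1.03, -0.45 with the length and GC trends removed). Gclc and Gclm, the subunits of the enzyme that starts glutathione synthesis, rose from 15.5 and 15.3 at d0 to 88.9 and 108 at d2 (2.67 ± 0.21) and from 28.5 and 18.9 at d0 to 112 and 107 at d2 (2.23 ± 0.21, detrended 1.40). Ddit3 and Trib3, genes of the integrated stress response, fell from 42.3 and 25.4 at d0 to 3.97 and 5.03 at d2 (-2.88 ± 0.30) and from 111 and 94.6 at d0 to 12.7 and 13.4 at d2 (-2.97 ± 0.21, detrended -1.75).

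The promoters of both metallothioneins hold the metal response element, searched as TGCACNC or TGCGCNC on both strands, with 3 matches in Mt1 and 4 in Mt2. Among 32851 promoters 25.7% hold at least 1 match and 0.517% hold 4 or more. One match of each is shown because the element is the known control of these genes by metal. The windows are chr8:94179055-94179083 (plus strand) for Mt1 and chr8:94172557-94172585 (plus strand) for Mt2, where the capitals are the element on the opposite strand.
Mt1: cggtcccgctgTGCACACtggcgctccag
Mt2: ggggggagggcGTGTGCAggctctgtccc
The matches describe letters in these windows and not a site in use.

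Enzymes of glycolysis fell in 11 of 18 cases and rose in 3 (median -0.65, -0.04 with library totals and 0.02 with the length and GC trends removed). The isoforms did not move together. Hexokinase 1 (Hk1) was at 152 and 134 at d0 and 15.3 and 16.7 at d2 (-3.16 ± 0.21) while hexokinase 2 (Hk2) was at 179 and 181 at d0 and 144 and 145 at d2 without a call. Ldha, the lactate dehydrogenase subunit that favours lactate, rose from 814 and 625 at d0 to 1315 and 1534 at d2 (0.99 ± 0.22, adjusted p = 0.0873 without shDIS3L2 d2), and the other subunit, Ldhb, fell from 544 and 555 at d0 to 142 and 166 at d2 (-1.84 ± 0.20, detrended -0.49). The glucose transporters also parted. Slc2a3 (GLUT3) was at 928 and 748 at d0 and 115 and 109 at d2 (-2.90 ± 0.22, edgeR adjusted p = 7.42e-09) and Slc2a1 (GLUT1) at 182 and 117 at d0 and 431 and 477 at d2 (1.63 ± 0.22). Gapdh, at 44.8 and 52.2 at d0 and 50.7 and 53.3 at d2, shares reads with many pseudogenes, and its value is uncertain.

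Hypoxia targets had 7 of 17 rising and 9 falling (median -0.62, -0.01 with library totals, detrended 0.14). Pdk1, which limits pyruvate entry into the citric acid cycle, rose from 43.1 and 30.8 at d0 to 147 and 127 at d2 (1.91 ± 0.20, detrended 1.23), and Vegfa, the vascular growth factor, fell from 26.7 and 18.8 at d0 to 7.52 and 6.76 at d2 (-1.65 ± 0.27). Cholesterol synthesis genes fell in 12 of 22 cases and rose in 4 (median -0.62, -0.01 with library totals, detrended -0.68). The largest falls of that list were those of Fdps, which makes farnesyl pyrophosphate, at 75.7 and 77.7 at d0 and 13.3 and 14.4 at d2 (-2.47 ± 0.21), and of the mevalonate kinases Pmvk (-2.30 ± 0.20, detrended -0.87) and Mvk (-2.29 ± 0.22, detrended -1.32).

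Cell cycle regulators had 8 of 19 rising and 5 falling (median 0.31, detrended 0.13), and the D cyclins moved in opposite directions. Ccnd2 was at 0.531 and 0.515 at d0 and 16.9 and 14 at d2 (4.88 ± 0.39), while Ccnd3 was at 284 and 346 at d0 and 32.6 and 33.2 at d2 (-3.25 ± 0.21) and Ccnd1 fell as given above. The inhibitor gene Cdkn2a (p16 and ARF) was at 78 and 72.8 at d0 and 9.8 and 11.8 at d2 (-2.81 ± 0.22, detrended -0.91), and Cdkn1c (p57) at 1.65 and 2.37 at d0 and 16.8 and 21.2 at d2 (3.25 ± 0.31). Rb1, the retinoblastoma protein, was at 6.38 and 6.23 at d0 and 35.6 and 42.1 at d2 (2.61 ± 0.25). The mitotic genes Cdk1, Ccnb1 and Ccna2 had no call. Ccna2 had a rising call with library totals (0.91, adjusted p = 0.00137) and with totals of protein-coding genes (0.73, adjusted p = 0.00138). With the trends removed, Cdk1 (-0.53, adjusted p = 0.0291) and Ccnb1 (-0.43, adjusted p = 0.0495) had falling calls. Of 13 p53 targets, 6 rose and 3 fell (median 0.13, 0.74 with library totals, detrended 0.75). Cdkn1a, the p21 inhibitor gene, fell from 215 and 237 at d0 to 141 and 155 at d2 (-0.61 ± 0.19, edgeR adjusted p = 0.00912). That fall became 0.44 with the trends removed, -0.01 (adjusted p = 0.974) with library totals, -0.50 (0.265) without shLacZ d2 and -0.66 (0.136) without shDIS3L2 d2. Trp53inp1 was at 92.7 and 100.3 at d0 and 671 and 888 at d2 (3.001 ± 0.22, detrended 1.86) and Eda2r at 14.4 and 15 at d0 and 129 and 149 at d2 (3.23 ± 0.21). Mdm2, the ubiquitin ligase of p53, was at 86.1 and 109 at d0 and 305 and 333 at d2 (1.72 ± 0.20). Bax, the pore-forming death factor, went from 447 and 646 at d0 to 165 and 195 at d2 (-1.58 ± 0.20), a fall that became 0.05 with the length and GC trends removed.

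Adhesion genes moved both ways (6 of 15 rising, 6 falling, median 0.14, 0.74 with library totals, detrended 0.86), among epithelial as among mesenchymal genes. Epcam, the epithelial adhesion molecule, was at 37.4 and 20.9 at d0 and 137 and 135 at d2 (2.27 ± 0.22), and the tight junction gene Cldn6 at 11.2 and 5.51 at d0 and 93.5 and 89.7 at d2 (3.51 ± 0.25). N-cadherin (Cdh2) was at 0.895 and 2.27 at d0 and 13.2 and 12 at d2 (3.13 ± 0.40), and Zeb2, a repressor of E-cadherin, at 0.14 and 0.155 at d0 and 6 and 4.03 at d2 (5.10 ± 0.55, detrended 3.35). Keratin 8 (Krt8) fell from 42.7 and 34.2 at d0 to 9.49 and 10.2 at d2 (-1.95 ± 0.24, detrended -0.59). E-cadherin (Cdh1) was at 459 and 393 at d0 and 746 and 622 at d2 (0.68 ± 0.20), a rise that did not pass the test without shLacZ d2 (0.59, adjusted p = 0.231) or shDIS3L2 d2 (0.83, adjusted p = 0.0817), nor with all 14 libraries (0.68, adjusted p = 0.0851). In the basement membrane and matrix list (5 of 14 rising, 7 falling, median -0.22, 0.38 with library totals and 0.28 with the trends removed), the collagen IV chain Col4a1 rose from 7.75 and 4.95 at d0 to 87 and 54.9 at d2 (3.48 ± 0.23) and the laminin chain Lamb1 from 41.6 and 33.3 at d0 to 219 and 181 at d2 (2.42 ± 0.20). Nidogen 1 (Nid1), which links both networks, fell from 98.2 and 52.1 at d0 to 20.2 and 19.3 at d2 (-1.86 ± 0.23), as did Sparc, a matrix glycoprotein, from 447 and 492 at d0 to 127 and 131 at d2 (-1.86 ± 0.20).

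Among imprinted and X-linked noncoding RNAs, 4 of 9 rose and 1 fell (median 1.17, detrended 1.05). H19, the maternally expressed RNA next to Igf2, was at 1.93 and 2.06 at d0 and 159.5 and 104 at d2 (6.05 ± 0.27). Xist, which silences the X chromosome, was at 0.196 and 0.361 at d0 and 43.9 and 33.2 at d2 (7.21 ± 0.39), and reads of Xist and of its antisense partner Tsix cannot be told apart without the strand, whose use in counting is not given in the sources used here. Rian was at 83 and 34.6 at d0 and 509.7 and 432 at d2 (3.12 ± 0.25, detrended 1.05), while Meg3, from the same imprinted cluster, was at 459 and 543 at d0 and 603 and 425 at d2 and had no call. Its direction depended on the scaling, with a rising call with library totals (0.63, adjusted p = 0.0117) and a falling one with the trends removed (-1.01, adjusted p = 0.00143).

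RNAs that are poorly captured with polyA RNA set the shDIS3L2 library of d0 apart. The noncoding RNAs Rn7sk, Rmrp and Rpph1 were at 89.8, 40.8 and 89.2 normalized CPM in that library and at 3.92, 1.45 and 11.3 in shLacZ d0, and none was above 1.84 at d2. All 3 fell in the fit, and DESeq2 gave an adjusted p of 0.0724 for Rn7sk. With the trends removed the changes were -0.17 (adjusted p = 0.84), -1.63 and -1.38. Gm42418 was at 2109.9 and 28480.2 at d0 and 706 and 582 at d2, and its fall (-3.60 ± 0.67, edgeR adjusted p = 0.000149, detrended -2.21) was lost with DESeq2 (adjusted p = 0.227). Histone genes of the replication clusters, whose mRNAs lack a polyA tail, fell in 6 of 10 cases (median -2.61), which became -0.38 with the length and GC trends removed, and their d0 levels were in most cases higher in shDIS3L2. The paper names RMRP among the noncoding RNAs under surveillance by DIS3L2. Neither the part of this library nor that of the knockdown in these results was tested.

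Mitochondrially encoded genes took 2.63% and 2.43% of the reads at d0 and 4.07% and 4.62% at d2. Of 15 tested, 7 rose and 4 fell (median 0.15, 0.76 with library totals, detrended 0.97). mt-Nd2 was at 464 and 599 at d0 and 1473 and 1806 at d2 (1.63 ± 0.21) and mt-Nd6, the one coding gene of the light strand, at 114 and 194 at d0 and 36.5 and 28.7 at d2 (-2.20 ± 0.24, detrended -1.10). mt-Co2 was at 6059 and 6767 at d0 and 3469.8 and 3956 at d2 (-0.79 ± 0.22), a fall that became 0.34 with the trends removed, -0.18 (adjusted p = 0.314) with library totals, -0.65 (0.416) without shLacZ d2 and -0.86 (0.267) without shDIS3L2 d2. mt-Nd4l and mt-Atp8, which overlap their neighbours mt-Nd4 and mt-Atp6, rose by 4.93 and 2.43 (detrended 4.41) on the log2 scale, and these values are uncertain because shared reads can be counted for either gene or for neither.

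The genes with the largest changes were taken by size among protein-coding genes that changed at least 4-fold in each line. They also had at least 10 CPM, before the TMM factors, in both libraries of the higher day. Genes with a Gm or Rik number for a symbol were left out. The rule was met by 1313 rising and 430 falling genes, so the folds are a description of that choice. Beside Fgf5 and Dnmt3c above, the 15 largest rises held several genes without any read at d0. Car4, a carbonic anhydrase, was at 33.9 and 36.9 normalized CPM at d2, at least 648-fold higher. Foxi3, a forkhead factor, was at 14.8 and 17.2 (at least 291-fold), and Insm1, a zinc-finger factor of neuroendocrine cells, at 11.6 and 11.6 (at least 213-fold). Enpp2, the secreted enzyme autotaxin that makes lysophosphatidic acid, had 3 reads at d0 and was at 128 and 150.2 at d2, a ratio of 2532 (95% counting interval 866 to 12282). Wt1, a zinc-finger factor of kidney and gonad, had 1 read at d0 and was at 21.7 and 23.7 at d2, a ratio of 1245 (95% counting interval 223 to 49203). Irs4, an insulin receptor substrate, rose from 0.224 and 0.0515 at d0 to 121 and 84.8 at d2 (9.37 ± 0.35, edgeR adjusted p = 1.31e-11). The remaining 7 were Mmp25, Zfp608, Grm6, Tmem54, Fndc3c1, Gbp2 and Jakmip2, each with 1 or 2 reads over both d0 libraries.

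The 15 largest falls were of genes that were nearly off at d2. Trpm1, a cation channel (chr7:64153835-64269775), was at 189 and 252 at d0 and 0.212 and 0.192 at d2 (-10.03 ± 0.32, edgeR adjusted p = 4.13e-12). Srarp had 425 and 367 reads at d0 and none at d2, at least 282-fold lower. Crxos, from the Crx locus, was at 172 and 199 at d0 and 0.485 and 0.384 at d2 (-8.70 ± 0.29), and Wfdc2, a secreted protein with a whey acidic protein core, at 226 and 334 at d0 and 1.06 and 0.883 at d2 (-8.12 ± 0.30). Khdc3, a subunit of the maternal complex of oocytes, was at 38.7 and 58.7 at d0 and 0.212 and 0.23 at d2 (-7.72 ± 0.35). Smarcd3, a subunit of SWI/SNF remodelling complexes, was at 79.9 and 79.5 at d0 and 0.394 and 0.652 at d2 (-7.27 ± 0.31), and Spic, an ETS factor, at 44 and 46.4 at d0 and 0.273 and 0.461 at d2 (-6.96 ± 0.34). Osm, a cytokine of the LIF family, was at 13 and 13.7 at d0 and 0.152 and 0.0768 at d2 (-6.78 ± 0.49). S100a13 was the one of these with the lines far apart at d0, at 100.5 and 376 at d0 and 0.94 and 1.3 at d2, yet it fell in both. The others, with Gsc and Cdx1 above, were Mras, Dcstamp, Pglyrp1 and Serpinb1a.

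These genes behaved differently after d2. The following levels are normalized over all 14 libraries, and the step from d2 to d4 shares the d2 libraries with the step from d0, so they are only set side by side. The genes were chosen by these d0 and d2 libraries, so a highest level at d2 for risers or at d0 for fallers is in part built in. From d2 to d4, 3555 of 17820 genes rose (19.9%) and 3655 fell (20.5%). Of the 15 largest risers, 12 had their highest level of the 7 days at d2 in shLacZ and 10 in shDIS3L2, and at d4 the level was under 50% of that at d2 for 10 and 8 of them. Insm1 went from 13.3 and 13.4 at d2 to 0.641 and 0.314 at d4. Fgf5 stood at 102 and 84.2 at d2 and 80.7 and 99.2 at d4 and had dropped to 7.11 and 0.889 at d6. Car4 was an exception, with its highest level at d8 in shLacZ (122) and at d6 in shDIS3L2 (129.7). All 15 of the largest fallers were highest at d0 in both lines, and 10 in shLacZ and 11 in shDIS3L2 never came above 10% of d0 after d2. Gsc returned at d4, with 17.3 and 22.3 at d0, 0.105 and 0.134 at d2, 7.82 and 17.5 at d4 and 0.871 and 0.178 at d6. Cdx1 stood at 4.36 and 2.96 at d4, after 0.175 and 0.0445 at d2, and Smarcd3 at 16.3 and 30 at d12, after 0.454 and 0.757 at d2.

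**Figure D5:**
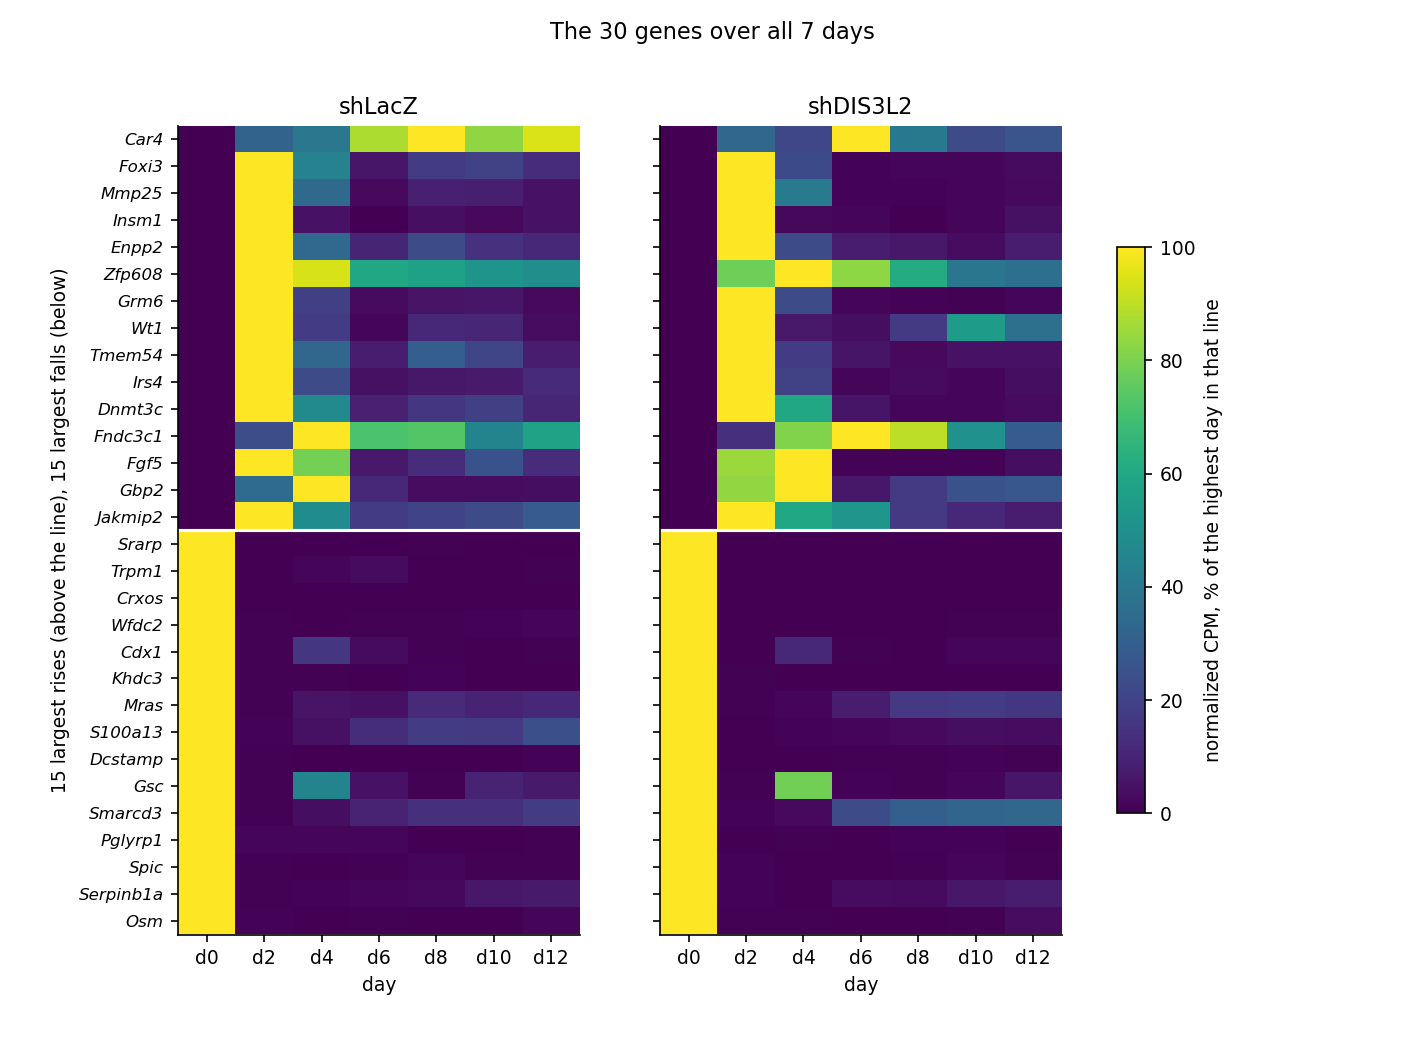
Heat map of the 15 largest rises and the 15 largest falls (rows) over the 7 days of sampling (columns), 1 panel per line, coloured by the level as a percentage of the highest day of that gene and line. The rises are dark at d0 and most are brightest at d2, and the falls are brightest at d0 and mostly dark after, with Gsc lit again at d4.

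Among the 14358 genes with at least 10 reads in every library, the change differed between the lines by over 2-fold in 1449 and by over 4-fold in 146, with 1 library per line and day behind each value and no test. In Kdr, the VEGF receptor and a mesoderm marker of the lists, shLacZ went from 1.82 to 9.19 normalized CPM and shDIS3L2 from 2.27 to 2.65. The rising call of Kdr was lost without shLacZ d2 (0.42, adjusted p = 0.662), with the trends removed (0.79, adjusted p = 0.169), with DESeq2 (adjusted p = 0.0684) and with all 14 libraries (adjusted p = 0.0885). Sall4 fell in both lines, to 159 and 142 from 284 and 631, and the lines were apart at d0 and alike at d2.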

How the data were processed

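PolyA RNA of ESCs and EBs was sequenced, and the authors mapped the reads to GRCm38 with Subread and used featureCounts to count reads by gene, per the paper's methods and the submitters' processing notes, which also name FastQC and limma. The deposited counts are whole, not normalized, and cover 50686 genes in 14 libraries. The strand setting is not given in the sources used here. A second deposited table of CPM for protein-coding genes was not used, and 0 columns of per-sample values were left out. The headings of the count table name the shDIS3L2 line by its shRNA, which the paper's materials tie to DIS3L2.

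Symbols and types came from GENCODE M21 (50462 genes matched), positions and exon lengths from the count table, GC content from the longest M21 transcript and promoters from the RefSeq table (GRCm38.p6). The 2 d0 and 2 d2 libraries were fitted with edgeR 4.0.16 in R 4.3.3 (filterByExpr, TMM factors of 0.896 and 0.733 at d0 and 1.25 and 1.22 at d2, quasi-likelihood F test, day with the line as a block, 1 residual degree of freedom per gene, Benjamini-Hochberg adjusted p under 0.05). Per-line changes used a prior count of 0.5 and carry no test. A gene with 0 reads on 1 day was bounded by 3 reads over both libraries of that day, and one with 1 to 3 reads was given as a pooled ratio with a 95% counting interval. Such bounds and intervals reflect counting error alone, because reads copied by PCR were not collapsed to molecules. Other steps ran in Python 3.11.15 with pandas 2.3.3, scipy 1.17.1 and matplotlib 3.10.9.

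The libraries, the 27 gene lists (376 genes, 342 tested) and the named genes were chosen with earlier results of these data known. Genes named by rule are Dis3l2, the key members of each list and its called members with the largest rise and the largest fall. The noncoding genes with the most reads were also named by rule, as were the 15 largest rises and 15 largest falls. These rises and falls were taken among protein-coding genes changed at least 4-fold in each line, with at least 10 CPM in both libraries of the higher day. The other list members named were chosen after their values were seen. Single values of some listed genes are not reported here. Alternatives were other scalings (library totals, DESeq2 size factors, totals of protein-coding genes), DESeq2 1.42.0, other filters on low counts, other sets of libraries, the fit without the block and each library left out. Removal of the length and GC trends was chosen after seeing the data. On simulated data for d0 against d2, the edgeR test recovered 31 of 100 planted 2-fold changes and 83 of 100 planted 4-fold changes with 9 other calls among 17961 genes, and DESeq2 recovered 26 and 66 with 3 other calls among 17801. Genes without a planted change were given the same mean in every library, with no line effect and no length or GC trend. Most genes were called in the real data, so these rates may not hold there.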

Additional observations from a re-analysis of the deposited data

Results flagged for a closer look

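In 5 of the genes named by rule the lines moved in opposite directions where the 95% counting interval of each line's change did not include 0, and the difference between the lines was not tested, since each line has 1 library per day. Eomes, a T-box factor of the streak, changed by 0.35 on the log2 scale in shLacZ and by -0.29 in shDIS3L2. Gata3, a trophoblast-like marker with 7 to 27 reads per library, changed by 1.76 and by -1.45. Meg3, the imprinted noncoding RNA, changed by 0.39 and by -0.35. The mitochondrial ribosomal RNA gene mt-Rnr2 changed by 0.44 and by -1.21, and it was at 918 normalized CPM in the shDIS3L2 library of d0 against 210 to 395 in the other 3. Gapdh-ps15, a pseudogene that shares reads with Gapdh, changed by -0.42 and by 0.44. None of the 5 genes passed the test of the day.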

How the results depend on the processing

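The rising and falling calls numbered 6899 and 6393 (51.9% rising). Library totals gave 8810 and 4102 (68.2% rising), since they move the median of all genes by 0.60 (log2). Totals of protein-coding genes gave 6688 and 3722 (fewer genes tested), and removal of the length and GC trends gave 7761 and 4359 (64.0% rising). DESeq2 size factors, the DESeq2 test, both filters, the 6 or 14 libraries and a change of 2-fold in each line gave 5191 to 7128 rising and 4647 to 6713 falling genes. Without each library in turn, in a fit without the line, the counts ranged from 5005 to 8001 rising and from 4608 to 7195 falling, where the lone library of a day is assumed to vary like the other pair. The line pairs the libraries. The fit with no replicate block gave 6734 and 6297 genes, and among the named genes it ended the calls of Pou5f1, Gata4, Sqle, mt-Co1 and Dis3l2 and added Col3a1.

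Directions reversed for Pou5f1 (0.04 with library totals, 0.58 with the trends removed), Sqle (0.14) and Lama1 (0.00) with library totals, Dis3l2 (0.64 without shLacZ d0, and -2.33 to 0.64 over the 4 libraries left out in turn) and, with the trends removed, Etv4 (0.15), Nodal (0.38), Tubb3 (0.60), Apoa1 (0.08), Cdkn1a (0.44), Bax (0.05) and Gm8730 (0.49). The cause was not tested. Of 152 named genes, 133 kept their direction and call with the trends removed, 136 with library totals, 144 with DESeq2, and 135 and 132 without shLacZ d2 and shDIS3L2 d2. Depth limits genes near 0.0752 to 0.140 CPM, which is 3 reads.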
